A study of Mus musculus with 24 samples.

Results

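The genes described here are 6 metabotropic glutamate receptor genes, Grm2, Grm3, Grm4, Grm5, Grm7 and Grm8, taken by name from the 15232 genes of a table of bulk RNA from mouse anterior cingulate cortex. All 6 passed the filter on low values that left 12572 genes for testing. The 24 libraries formed 3 arms of 8, each with 4 females and 4 males: untrained mice labelled wild type (the WT-labelled arm), untrained mice labelled Thbs1/2 KO (the untrained KO-labelled arm) and trained mice labelled Thbs1/2 KO (the trained KO-labelled arm). Thbs1 and Thbs2 encode thrombospondins, matrix proteins that astrocytes secrete, and the study asked how they bear on effort in a goal-directed task. Trained mice worked in an operant chamber under food deprivation, so that training and food deprivation cannot be told apart, and trained mice labelled wild type were not analysed here. Strain, age and the design of the knockout alleles are not given in the sources used here. Poly(A) RNA of the whole region was sequenced, so that fewer cells of a type and less RNA per cell cannot be told apart.

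Metabotropic glutamate receptors are G protein-coupled receptors that respond to synaptic glutamate more slowly than the ion channel receptors do. Group I receptors couple to Gq and phospholipase C and lie mostly on the postsynaptic side, next to Homer scaffolds. Group II and group III receptors couple to Gi/o proteins, lower cyclic AMP, and in cortex often sit on axon terminals, where they restrain transmitter release. Of the group II receptors, Grm3 is also made by astrocytes.

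Some facts of the whole series touch the results. The targeted genes went against the labels: Thbs1 was at 0.512 ± 0.147 FPKM (SD, n = 8) in the WT-labelled arm, 3.68 ± 0.840 FPKM (SD, n = 8) in the untrained KO-labelled arm and 4.63 ± 0.690 FPKM (SD, n = 8) in the trained one, and every direction below rests on the labels. FPKM counts fragments by library size and per kilobase of the gene, so levels can be compared between genes. Each library carries its own number in its description, written here as its animal number and taken as 1 animal. All 8 trained animals had numbers over 1000, against 2 untrained KO-labelled males and 1 WT-labelled male, so that in females training and the number range cannot be told apart. Recovered depth was 12213567 to 26966777 reads per library. Male library 3 of the untrained KO-labelled arm was the deepest and stood apart: its summed level of 7 excitatory cortical neuron markers was 975 FPKM, against 1831 to 2143 FPKM in the other 7 libraries of its arm. Its striatal markers summed to 481 FPKM against 71.4 to 280 FPKM in its arm, and its septal markers to 114 FPKM against 7.38 to 10.3 FPKM. Results that rest on this library are given with and without it.

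The 6 receptors differed in level in a mostly fixed order. Over the 24 libraries the mean level was 26.7 FPKM for Grm3, 23.7 FPKM for Grm5, 16.7 FPKM for Grm2, 13.8 FPKM for Grm7, 7.29 FPKM for Grm8 and 5.56 FPKM for Grm4. Grm7 lay above Grm8 in 24 of 24 libraries and Grm8 above Grm4 in 23. The 3 upper steps were less fixed: Grm3 lay above Grm5, Grm5 above Grm2 and Grm2 above Grm7 in 20 of 24 libraries each. Grm3 exceeded Grm5 in 8 of 8 WT-labelled libraries but in only 5 of 8 trained ones. The reads behind a single value ranged from 233 for Grm4 in 1 WT-labelled library to 11072 for Grm5 in male library 3, which sets counting error only.

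**Figure D1:**
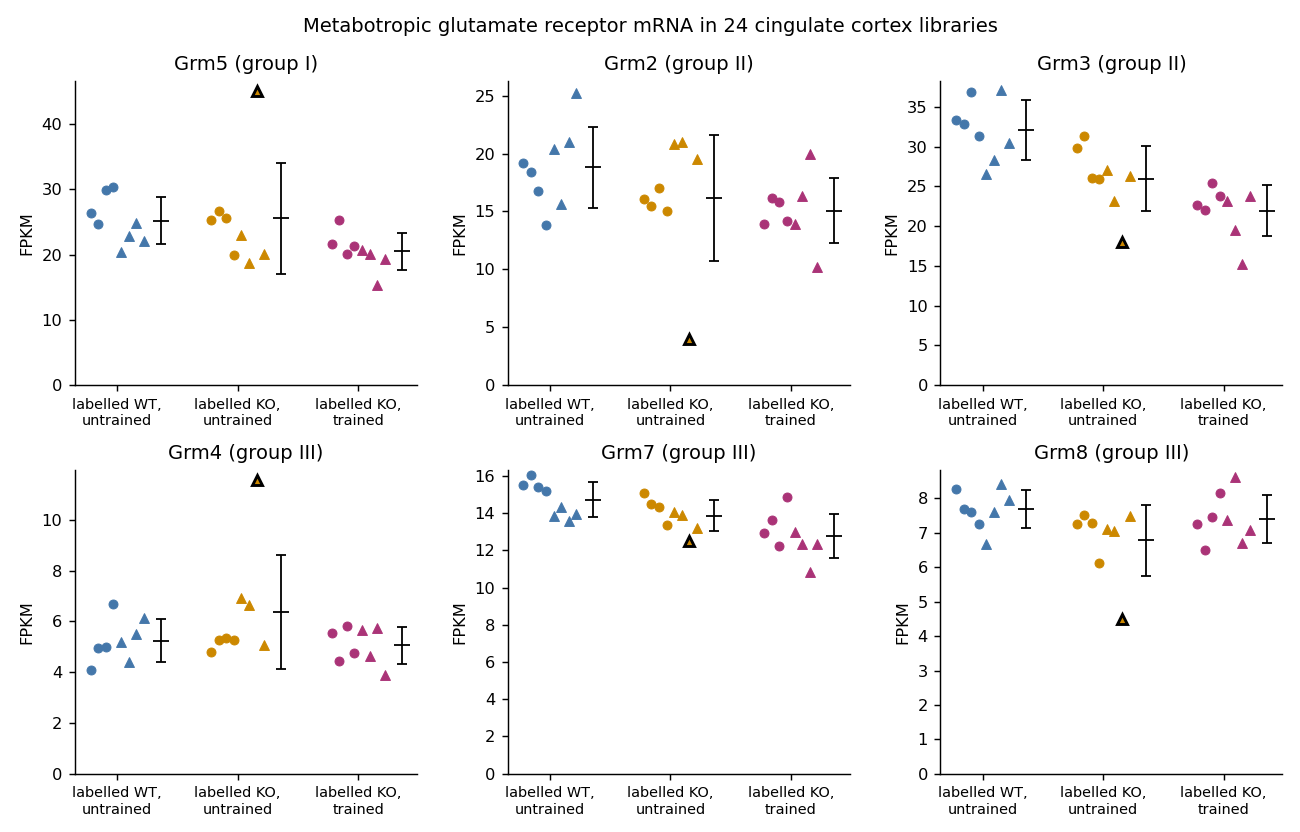
FPKM of each receptor (vertical axes) in each of the 24 libraries, by arm (horizontal axes). Circles are females, triangles are males, the bar beside each arm is its mean and SD (n = 8), and the ringed triangle is male library 3 of the untrained KO-labelled arm, at 45.1 FPKM for Grm5 and 4.01 FPKM for Grm2. The trained libraries lie below every WT-labelled library for Grm3, and for no other receptor.

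Male library 3 had a receptor profile of its own. Against the median of the other 7 libraries of its arm, Grm4 was 2.20 times and Grm5 1.96 times as high, whereas Grm2 was at 0.236, Grm8 at 0.619, Grm3 at 0.684 and Grm7 at 0.888 of that median. Its values of Grm4 (11.6 FPKM), Grm5 (45.1 FPKM), Grm2 (4.01 FPKM) and Grm8 (4.49 FPKM) lay outside the range of the other 23 libraries. Grm3 (18.0 FPKM) and Grm7 (12.5 FPKM) were the lowest of its arm but lay within the range of the trained libraries. Group II made up 23.02% of the summed level of the 6 receptors there and group I 47.1%. In the 8 WT-labelled libraries group II made up 43.1% to 52.6% and group I 20.9% to 29.0%.

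Grm5, the group I receptor described here, binds glutamate at the edge of the postsynaptic density and couples to Gq. The gene lies on chromosome 7, 87584168 to 88134907, plus strand (GRCm38). Its level ran from 20.4 to 30.3 FPKM (median 24.8) in the WT-labelled arm, from 18.7 to 45.1 FPKM (median 24.2) in the untrained KO-labelled arm and from 15.3 to 25.3 FPKM (median 20.4) in the trained arm. The arms overlapped, and the trained arm was the lowest, with 4 of its 8 libraries below every WT-labelled one.

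Grm2, a group II receptor found mainly on axon terminals, lies on chromosome 9, 106643095 to 106656082, minus strand, where its exons overlap those of Gm28111 on the other strand. It ran from 13.8 to 25.2 FPKM (median 18.8) in the WT-labelled arm, from 4.01 to 21.0 FPKM (median 16.5) in the untrained KO-labelled arm and from 10.2 to 19.97 FPKM (median 14.96) in the trained arm. The 3 arms overlapped widely.

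Grm3, the group II receptor shared by neurons and astrocytes, lies on chromosome 5, 9485541 to 9725170, minus strand. It ran from 26.6 to 37.2 FPKM (median 32.1) in the WT-labelled arm, from 18.0 to 31.4 FPKM (median 26.2) in the untrained KO-labelled arm and from 15.2 to 25.4 FPKM (median 22.9) in the trained arm. The medians stepped down from arm to arm, and the highest trained library lay below the lowest WT-labelled one. The untrained KO-labelled arm overlapped with both.

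Among the group III receptors, which act mostly as presynaptic brakes, Grm7 had the highest level. It lies on chromosome 6, 110645581 to 111567230, plus strand, and its exons overlap those of Gm20387 on the other strand. Its level ran from 13.6 to 16.1 FPKM (median 14.8) in the WT-labelled arm, from 12.5 to 15.1 FPKM (median 14.0) in the untrained KO-labelled arm and from 10.8 to 14.9 FPKM (median 12.7) in the trained arm. As with Grm3, the medians went down from arm to arm, but by a smaller amount and with overlap.

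Grm8, also on chromosome 6 (27275119 to 28135178, minus strand, with Mir592 inside it on the same strand), ran from 6.68 to 8.43 FPKM (median 7.65) in the WT-labelled arm. It ran from 4.49 to 7.51 FPKM (median 7.18) in the untrained KO-labelled arm and from 6.50 to 8.63 FPKM (median 7.33) in the trained arm. Grm4, on chromosome 17 (27422387 to 27521403, minus strand), ran from 4.09 to 6.70 FPKM (median 5.08), from 4.78 to 11.6 FPKM (median 5.31) and from 3.88 to 5.81 FPKM (median 5.16) in the same order. Neither receptor showed a step between the arms in its medians beyond the spread of its libraries.

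The summed level of the 6 receptors was 103.8 ± 7.05 FPKM (SD, n = 8) in the WT-labelled arm, 94.7 ± 5.08 FPKM (SD, n = 8) in the untrained KO-labelled arm and 82.7 ± 5.12 FPKM (SD, n = 8) in the trained arm. Group III made up 26.7 ± 1.29%, 28.6 ± 1.14% and 30.5 ± 1.32% of it (SD, n = 8 each), and group II 49.0 ± 3.08%, 44.5 ± 8.83% and 44.8 ± 1.76%. Group I made up 24.3 ± 2.67%, 26.9 ± 8.47% and 24.7 ± 2.25%. Leaving out male library 3, the shares of the untrained KO-labelled arm were 28.4 ± 1.10% for group III, 47.6 ± 1.68% for group II and 24.003 ± 2.37% for group I (SD, n = 7). The group II share of that arm thus lay near the trained arm's with the library and between those of the other arms without it. These shares add up to the whole, so that a lower Grm3 raises the others. Within group II the ratio of Grm3 to Grm2 was 1.76 ± 0.371 in the WT-labelled arm, 1.56 ± 0.329 (SD, n = 7) in the untrained KO-labelled arm without male library 3, where it was 4.49, and 1.53 ± 0.454 in the trained arm.

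The first comparison asked whether receptor expression differed between the untrained libraries labelled KO and WT. None of the 6 receptors passed in limma at an adjusted p under 0.05, against a background of 1.42% of all genes tested. At an unadjusted p under 0.05 there were 3 (Grm3, Grm7 and Grm8) in limma on log2(FPKM + 1), against 1600 of all 12572 genes tested. In limma-voom on recovered reads the same 3 were under it, against 1674 of 12568 genes, and limma-voom also called 0 after adjustment. Of the 6, 5 had a change below 0, against 50.7% of all genes tested, and their median was -0.12 against -0.00 over all genes.

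Grm3 came nearest to the threshold, with a log2 difference of -0.30 (SE 0.0823, limma adjusted p = 0.0940). All 8 KO-labelled libraries lay below the WT-labelled mean and 5 of 8 below every WT-labelled library. Without male library 3 the difference was -0.24 (limma adjusted p = 0.0520, against a background of 2.70% of genes called). The adjusted p was 0.0520 to 0.198 over the fits that left out 1 library, and 0.0581 to 0.232 over the other alternatives, so that Grm3 stayed short of the threshold in each of them.

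For the presynaptic receptors Grm7 and Grm8 the differences were -0.08 (SE 0.0346, limma adjusted p = 0.326) and -0.17 (SE 0.0795, limma adjusted p = 0.389). The values of Grm2, Grm4, Grm5 and Grm8 turned on male library 3, without which Grm8 was at -0.10 (SE 0.0518, limma adjusted p = 0.353). With it the log2 differences of the other three were -0.30 for Grm2, 0.20 for Grm4 and -0.02 for Grm5, and without it -0.04, 0.10 and -0.16 (limma adjusted p = 0.843, 0.672 and 0.217). The 95% interval for Grm2 went from -0.81 to 0.21 with the library and from -0.21 to 0.13 without it.

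Grm4 shares chromosome 17 with the targeted gene Thbs2, which lies 12.8 Mb away. Of the 128 tested genes between them, 22 passed for the genotype label (17.2%), against 8.39% of the tested genes of chromosome 17 and 1.42% of all. Of the 20 tested genes next to Grm4, 10 on each side, 1 passed. This was Nudt3, at -0.31 (SE 0.0729, limma adjusted p = 0.0426). When male library 3 was left out, 32 of the 128 passed (25%), and 4 of the 20, against 12.1% of the tested genes of chromosome 17 and 2.70% of all. The 4 were Nudt3 as lower and Cuta, Uqcc2 and Anks1 as higher, the last 3 named after their values were seen. Grm4 itself did not pass, at 0.20 (SE 0.126, limma adjusted p = 0.546).

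The second comparison asked how the trained libraries labelled KO differed from the untrained ones with the same label. None of the 6 receptors passed in limma, against a background of 5.67% of all genes. Grm3 and Grm7 were the 2 at an unadjusted p under 0.05, against 2989 of all 12572 genes. They were also the 2 in limma-voom, against 3083 of 12568 genes, and limma-voom called 0 as well. The median of the 6 was -0.17, against 0.01 over all genes, and 5 of 6 were below 0, against 47.8% of all genes.

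Grm3 was lower in the trained arm by a log2 difference of -0.23 (SE 0.0913, limma adjusted p = 0.133), and all 8 trained libraries lay below the mean of the untrained KO-labelled arm. Its call turned on male library 3: without it the difference was -0.29 (SE 0.0787, limma adjusted p = 0.0366), 5 of 8 trained libraries lay below each of the other 7, and 6.78% of all genes passed, 2.80% as lower. With the animal number range as a covariate the difference was -0.33 (SE 0.154, limma adjusted p = 0.470), and 0 of 12572 genes passed.

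Grm7 had a log2 difference of -0.11 (SE 0.0478, limma adjusted p = 0.158). For Grm5 it was -0.27 (SE 0.140, limma adjusted p = 0.260) and without male library 3 -0.13 (limma adjusted p = 0.297). Grm4 gave -0.24 and -0.13, and Grm8, the one receptor above 0, 0.12 and 0.05. Leaving out that 1 library thus moved each of the last 3 by more than 1.5 times, and none of them passed either way.

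Grm2 was the receptor whose training value depended most on the fit. With all libraries its log2 difference was -0.00 (95% interval -0.51 to 0.50), and without male library 3 it was -0.25 (95% interval -0.47 to -0.04, limma adjusted p = 0.136). With the number range as a covariate it was -0.62 (SE 0.363, limma adjusted p = 0.574). Among males with numbers over 1000, 4 trained and 2 untrained, it was -0.48 (limma adjusted p = 0.474), and those 2 untrained libraries, at 20.9 and 21.0 FPKM, lay above all 8 trained ones.

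The third pair set the trained KO-labelled arm against the WT-labelled arm, which differed in both label and training, and these cannot be told apart there. In limma 3 of the 6 receptors passed, all lower in the trained arm, against a background of 24.5% of all genes called and 11.5% called lower. The 3 came from all 3 groups: Grm5 of group I, Grm3 of group II and Grm7 of group III. All 6 changes were below 0, against 49.1% of all genes, with a median of -0.24 against 0.00 over all genes.

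Grm3 had a mean of 21.95 ± 3.21 FPKM (SD, n = 8) in the trained arm against 32.1 ± 3.74 FPKM (SD, n = 8) in the WT-labelled arm, 0.684 times as high. The log2 difference was -0.53 (SE 0.0798, limma adjusted p = 0.000192). The arms did not overlap, which held for 3.11% of all genes, and for 1.46% with the trained arm lower. Leaving out any 1 library kept the call, with differences from -0.57 to -0.47.

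Grm5 was lower by a log2 difference of -0.29 (SE 0.0655, adjusted p in limma 0.00481), from 25.2 ± 3.58 FPKM to 20.5 ± 2.76 FPKM (SD, n = 8 each), and 7 of 8 trained libraries lay below the WT-labelled mean. Grm7 differed by -0.19 (SE 0.0430, adjusted p in limma 0.00380), from 14.7 ± 0.925 FPKM to 12.8 ± 1.17 FPKM (SD, n = 8 each), with 6 of 8 trained libraries below every WT-labelled one. Both calls held when any 1 library was left out. Of 13 other alternatives, the call of Grm5 was lost in 3: in one fit of the 3 arms (-0.29, limma adjusted p = 0.102), with the replicate block (-0.26, limma adjusted p = 0.0663) and with the animal number range as a covariate. The call of Grm7 was lost in 1, and that of Grm3 in 1, both times with the number range.

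Grm2 lay at the edge of the threshold in this pair, with -0.30 (SE 0.113, limma adjusted p = 0.0576). It passed in 3 of the 16 fits that left out 1 library and in 6 of 13 other alternatives, limma-voom among them (adjusted p = 0.0453). In this pair limma-voom called 4 receptors, all lower, against 3124 of 12568 genes, 1612 of them lower. Grm4 at -0.04 (95% interval -0.22 to 0.14) and Grm8 at -0.05 (95% interval -0.17 to 0.06) had intervals that span 0.

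The animal number range was followed for Grm3 and Grm5 in the untrained arms. The 2 untrained KO-labelled males with numbers over 1000 were at 23.2 and 27.1 FPKM for Grm3, within the 18.0 to 31.4 FPKM of the other 6. For Grm5 they were at 18.7 and 23.1 FPKM, against 19.9 to 45.1 FPKM in those 6. The only WT-labelled animal with a number over 1000, also a male, had the lowest Grm3 and the lowest Grm5 of its arm, at 26.6 and 20.4 FPKM. The other 7, of both sexes, ran from 28.4 to 37.2 FPKM for Grm3 and from 22.1 to 30.3 FPKM for Grm5. Its Grm7, at 13.8 FPKM, lay within the range of those 7 libraries. With the range as a covariate the differences were -0.35 for Grm3 (SE 0.172, limma adjusted p = 0.521), -0.12 for Grm5 (limma adjusted p = 0.826) and -0.18 for Grm7 (SE 0.0968, limma adjusted p = 0.551). The difference of Grm7 thus kept its size, with a larger SE. None of the 6 then passed, and 22 of 12572 genes did.

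**Figure D2:**
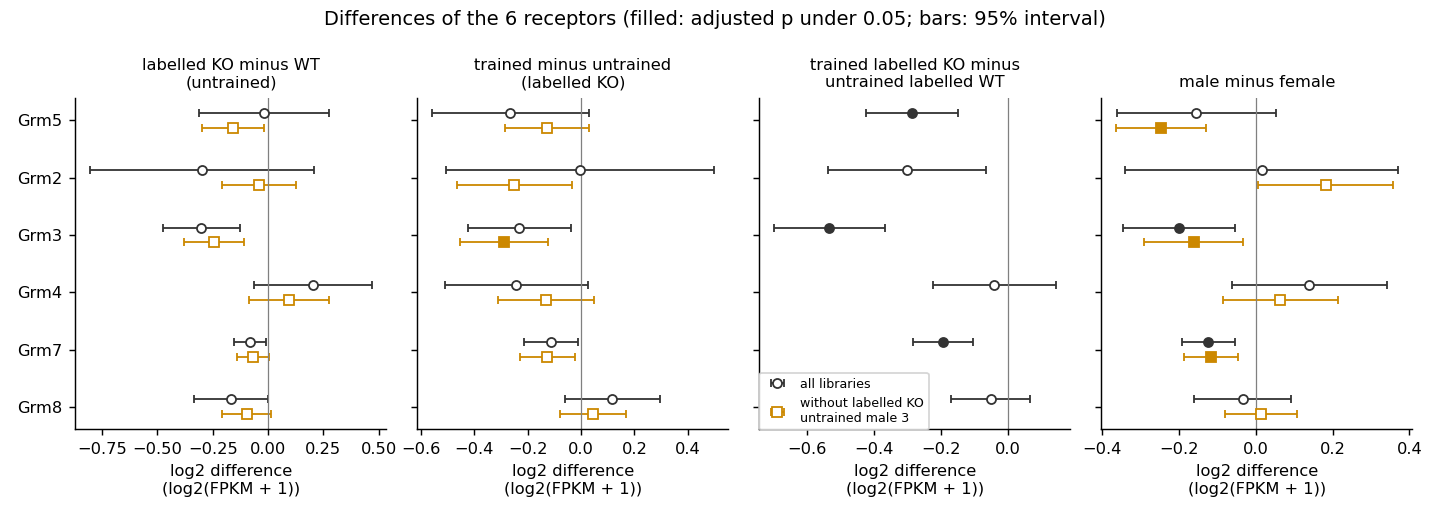
Log2 differences of the 6 receptors on the log2(FPKM + 1) scale (horizontal axes), with 95% intervals, in 4 comparisons, with all libraries (dark circles) and without male library 3 of the untrained KO-labelled arm (orange squares; that library does not enter the third pair of arms). Filled symbols passed at an adjusted p under 0.05. Leaving out the library narrows the intervals of Grm5 and Grm2 and shifts them.

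The sexes were compared in the 24 libraries together, with the arm in the fit. In limma 2 of 6 receptors passed, both lower in males, against a background of 28.6% of all genes called and 13.8% called lower. Grm7 had a log2 difference of -0.12, male minus female (SE 0.0333, limma adjusted p = 0.00819), from 14.4 ± 1.16 FPKM in females to 13.1 ± 1.01 FPKM in males (SD, n = 12 each). For Grm3 it was -0.20 (SE 0.0706, limma adjusted p = 0.0354), from 28.4 ± 4.77 to 24.9 ± 5.88 FPKM (SD, n = 12 each). The call of Grm3 was lost in 9 of 24 fits that left out 1 library.

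Grm5 did not pass with all libraries, at -0.16 (SE 0.101, limma adjusted p = 0.256). Without male library 3, where it was at 45.1 FPKM, it was lower in males by a log2 difference of -0.25 (SE 0.0573, limma adjusted p = 0.00258). The fit without that library called 4148 of 12572 genes, 1879 of them lower. A correction for the GC content and length of genes was made with all 24 libraries, male library 3 among them. None of the 6 then passed for sex, and 614 of 12118 genes did. Grm7 was at -0.09 (limma adjusted p = 0.0702) and Grm3 at -0.19 (limma adjusted p = 0.114). Grm5 was at -0.00 (limma adjusted p = 0.989), against -0.16 in the same libraries without the correction.

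Whether the receptors' differences between arms themselves differed between the sexes was tested with interaction terms. None of the 6 passed in limma for genotype label by sex (background 0% of genes) or for training by sex (background 0.00795%). None had an unadjusted p under 0.05 in limma or limma-voom. In limma 394 and 1952 of all 12572 genes had such a p. The interaction terms of the 6 ranged from -0.43 to 0.39 for the genotype label and from -0.47 to 0.15 for training, wider than the differences between arms. Their SE was also larger, with a median over all genes of 0.122 against 0.0609 for the genotype label and 0.127 against 0.0661 for training. Nothing about the sexes is read from the wider range. Male library 3 entered both fits, and without it none of the 6 passed either, against 0 and 194 of all 12572 genes.

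The receptors varied with markers of cell types in different ways. Over the 24 libraries, 24 correlations were computed, of 6 receptors with the summed levels of 4 marker lists, each with permutation p-values adjusted over the 24, and 9 passed for Pearson's r. Without the 2 libraries farthest from the median of the marker sum, 5 passed. Male library 3 was 1 of those 2 for the 3 neuronal lists. No covariate entered these correlations, so that differences between the arms and between the sexes were not taken off. The values over 24 libraries thus hold differences between arms as well.

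Grm2 rose with the excitatory cortical neuron markers, among them Slc17a7, Tbr1, Neurod2, Neurod6, Nrgn and Camk2a. Pearson's r was 0.91 (permutation adjusted p = 0.00024, from the smallest p the permutations can give) and Spearman's rho 0.73 (permutation adjusted p = 0.0024), and without the 2 farthest libraries r was 0.63 (permutation adjusted p = 0.0106). Within the WT-labelled, untrained KO-labelled and trained arms r was 0.86, 0.99 and 0.53, within numbers under 1000 it was 0.97 and over 1000 it was 0.70. The sign was thus the same in every arm, and without male library 3 r was 0.87 within the untrained KO-labelled arm.

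Grm5 went the other way. Its r with the same markers was -0.80 (permutation adjusted p = 0.00056) with rho -0.57 (permutation adjusted p = 0.0249), and -0.63 without the 2 farthest libraries (permutation adjusted p = 0.0121). Within the arms, in the same order, r was -0.92, -0.92 and -0.83, and within numbers under and over 1000 it was -0.89 and -0.59. Without male library 3 the value within the untrained KO-labelled arm was -0.54. In the WT-labelled arm Grm5 averaged 27.9 FPKM in 4 females and 22.5 FPKM in 4 males. The excitatory marker sums there ran from 1666 to 2004 FPKM in females and from 1958 to 2270 FPKM in males. The part of sex in this relation was not tested.

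Grm3 fell as the summed level of the GABAergic interneuron markers (Gad1, Gad2, Slc32a1, Pvalb, Sst, Vip and Lhx6) rose. The 7 markers did not all move with their sum. In male library 3 Gad1, Gad2, Slc32a1 and Lhx6 lay above the other 23 libraries, Pvalb and Vip below them and Sst within their range. Its r was -0.75 (permutation adjusted p = 0.00036) with rho -0.69 (permutation adjusted p = 0.00324), and -0.66 without the 2 farthest libraries (permutation adjusted p = 0.0078). Within the arms r was -0.52, -0.95 and -0.65 (unadjusted permutation p = 0.191, 0.00159 and 0.0866), with rho -0.38, -0.86 and -0.26. Without male library 3 r was -0.82 within the untrained KO-labelled arm, with rho -0.79. Within numbers under and over 1000 r was -0.85 and -0.39, with rho -0.72 and 0.02. The sum of these 7 markers ran from 462 to 651 FPKM (median 516) in the WT-labelled arm and from 536 to 699 FPKM (median 589) in the trained arm, where 2 of 7 passed as higher. The median log2 difference of the 7 markers between these arms was 0.03. Their sum thus moved with the fall of Grm3 between these arms, and its part in that fall was not tested.

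The relation of Grm3 with the astrocyte markers, which stand for another known source of it, did not pass: r was 0.20 over 24 libraries (permutation adjusted p = 0.502) with rho 0.15 (permutation adjusted p = 0.704), and 0.02 without the 2 farthest. Within the arms it was 0.19, -0.07 and 0.62, and within numbers under and over 1000 it was -0.25 and 0.52. Without male library 3 the value within the untrained KO-labelled arm was -0.38. The sum of the 8 astrocyte markers ran from 852 to 986 FPKM in the WT-labelled arm and from 816 to 1057 FPKM in the trained arm, where 1 passed as higher and 2 as lower. Of the 4 markers of oligodendrocyte precursors, 2 passed as lower there, with sums of 33.3 to 51.4 FPKM and 31.0 to 40.6 FPKM. Of the 5 microglia markers, 3 passed as lower and 1 as higher, with sums of 112 to 131 FPKM and 101 to 118 FPKM. Of the 7 excitatory markers, 2 passed as higher, with sums of 1666 to 2270 FPKM and 1730 to 2189 FPKM. None of these markers was at 0, and their part in the Grm3 difference was not tested. For training, 1 astrocyte marker passed as lower, and the median difference of the 8 was -0.16. Their sum had a median of 982 FPKM (875 to 1139 FPKM) in the untrained KO-labelled arm without male library 3, which was at 949 FPKM, and of 904 FPKM in the trained arm. It thus moved with Grm3 in the training comparison, and its part in that difference was not tested.

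Grm7 also fell with the interneuron markers, with r -0.61 (permutation adjusted p = 0.0073) and rho -0.59 (permutation adjusted p = 0.0235), and r -0.56 without the 2 farthest libraries (permutation adjusted p = 0.0313), where rho was -0.51 and no longer passed (permutation adjusted p = 0.0795). Within the arms r was -0.31, -0.82 and -0.63, the -0.82 with male library 3 in the arm. Within numbers under and over 1000 it was -0.68 and -0.36. For Grm5 the interneuron relation depended on male library 3: over all 24 libraries r was -0.14 (permutation adjusted p = 0.653) and rho -0.53 (permutation adjusted p = 0.0359), and without the 2 farthest r was -0.76 (permutation adjusted p = 0.00072). Within numbers under and over 1000 r was 0.29 and -0.69, within the arms -0.73, 0.52 and -0.74, and -0.92 in the untrained KO-labelled arm without male library 3.

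The other relations that passed for r no longer passed without the 2 farthest libraries. Grm4 followed the striatal neuron markers with r 0.71 (permutation adjusted p = 0.00246) and rho 0.52 (permutation adjusted p = 0.0378) over 24 libraries, and r 0.43 without the 2 farthest (permutation adjusted p = 0.189). Its r was 0.61, 0.88 and 0.63 within the arms and 0.77 and 0.53 within numbers under and over 1000. Within the untrained KO-labelled arm without male library 3 it was 0.63. For Grm8 r with the excitatory markers went from 0.72 (rho 0.22) to 0.08, and with the interneuron markers from -0.61 (rho -0.53) to -0.38. For Grm5 r with the striatal markers went from 0.57 (rho 0.22) to 0.15, and for Grm4 with the interneuron markers from 0.50 (rho 0.31) to 0.17.

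**Figure D3:**
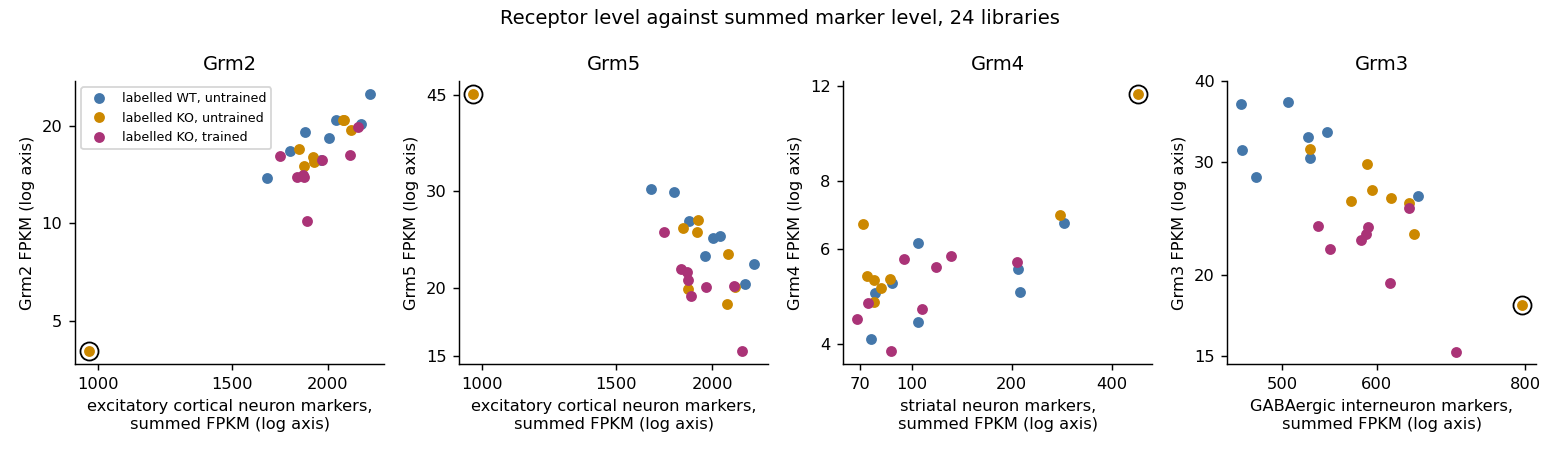
Receptor level (vertical axes, FPKM, log axis) against the summed FPKM of a marker list (horizontal axes, log axis) in the 24 libraries, coloured by arm, for Grm2 and Grm5 with excitatory cortical neuron markers, Grm4 with striatal neuron markers and Grm3 with GABAergic interneuron markers. The ringed point is male library 3 of the untrained KO-labelled arm, at 975 FPKM of excitatory and 481 FPKM of striatal markers. Grm2 rises and Grm5 falls with the excitatory markers among the remaining points as well.

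Among themselves, after the mean of each arm and sex was taken off, several receptors moved together. In the 23 libraries other than male library 3, r was above 0 for every pair of Grm3, Grm5, Grm7 and Grm8, from 0.34 to 0.57, and below 0 for Grm2 with Grm3, Grm5 and Grm7 (-0.37, -0.29 and -0.29). In all 24, r was 0.45 to 0.65 among Grm3, Grm7 and Grm8, and Grm4 went against each of them (-0.45, -0.43 and -0.58). Grm2 and Grm5 went in opposite directions (r -0.82, rho -0.51 over 24 libraries), but without male library 3 r was -0.29. Grm3 and Grm5 went from -0.15 to 0.57 when that library was left out, and Grm2 and Grm8 from 0.70 to 0.12. Grm3 and Grm8 kept the sign and most of the size, with 0.65 and 0.48. These values describe the libraries and carry no test.

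The same residuals gave the genes whose pattern was most like each receptor's, out of 12571 compared. For Grm3 the same 2 genes led with and without male library 3: Secisbp2l (r 0.88 and 0.87) and Pcdhac2 (0.86 and 0.84). For Grm4 Rap1gap led in both sets (0.93 and 0.89), and for Grm8 Nwd2 was among the first 2 in both (0.94 and 0.87). For the other 3 the likest genes changed with the library: for Grm5 Kcnn3 led with it (0.96) and C77370 without it (0.92), for Grm2 Rtn4r (0.97) and Npdc1 (0.89), and for Grm7 Nvl (0.80) and Chm (0.79).

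Of the genes that act with the receptors, 4 lists were counted. The background over all genes was 1.42% with the genotype label, 5.67% with training and 24.5% in the third pair (11.5% as lower). Without male library 3 it was 2.70% with the genotype label and 6.78% with training. The lists hold only 21 to 35 tested genes, and their counts below lie on both sides of these shares. Nothing particular to a list is read from them. In the list of Gq and phospholipase C signalling downstream of group I receptors, 0 of 22 tested genes passed for the genotype label and 0 of 22 for training, in limma, with medians of -0.06 and -0.02. In the third pair of arms 4 of 22 passed, all lower. Without male library 3, Eef2k, the kinase of elongation factor 2 that acts in receptor-driven translation, passed as lower with training (-0.20, SE 0.0464, limma adjusted p = 0.0163).

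In the list of Gi/o and adenylyl cyclase signalling downstream of groups II and III, 0 of 30 passed for the genotype label and 1 of 30 for training. This was the adenylyl cyclase Adcy7, lower in the trained arm by a log2 difference of -0.31 (SE 0.0681, limma adjusted p = 0.0178), from 2.24 ± 0.267 to 1.62 ± 0.259 FPKM (SD, n = 8 each). Its level in the WT-labelled arm, 1.85 ± 0.243 FPKM (SD, n = 8), lay between these. In the third pair 2 of 30 passed as higher and 2 as lower. Without male library 3, Adcy1 passed as higher (0.18, limma adjusted p = 0.0116) and Gnai1 as lower (-0.20, limma adjusted p = 0.0172) for the genotype label.

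Of the scaffolds and partners of the receptors, 0 of 35 passed for the genotype label and 2 of 35 for training, both higher. Homer1, whose long forms tie group I receptors to the postsynaptic density and whose short form is induced by activity, rose by 0.46 (SE 0.126, limma adjusted p = 0.0412), from 28.7 ± 6.83 to 39.2 ± 5.08 FPKM (SD, n = 8 each), and the table gives the gene as 1 row, without its forms. Ppp1cc, a catalytic subunit of protein phosphatase, rose by 0.17 (SE 0.0361, limma adjusted p = 0.0139). In the third pair 5 of 35 passed as higher and 2 as lower.

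Of the genes that supply or clear glutamate and the peptide ligand NAAG, 1 of 21 passed for the genotype label and 1 for training. The glutamine transporter Slc38a1 was higher in the KO-labelled arm by 0.14 (SE 0.0326, limma adjusted p = 0.0363), and the neutral amino acid transporter Slc38a2 rose with training by 0.39 (SE 0.0961, limma adjusted p = 0.0256), from 35.7 ± 6.26 to 47.1 ± 7.83 FPKM (SD, n = 8 each). In the third pair 3 of 21 passed as higher and 3 as lower. Without male library 3 the vesicular glutamate transporter Slc17a6 also passed for the genotype label (0.65, SE 0.171, limma adjusted p = 0.0498). With the animal number range as a covariate no gene of the 4 lists passed for training. Homer1 was then at 0.33 (limma adjusted p = 0.624), Adcy7 at -0.21 (limma adjusted p = 0.543) and Slc38a2 at 0.21 (limma adjusted p = 0.660).

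**Figure D4:**
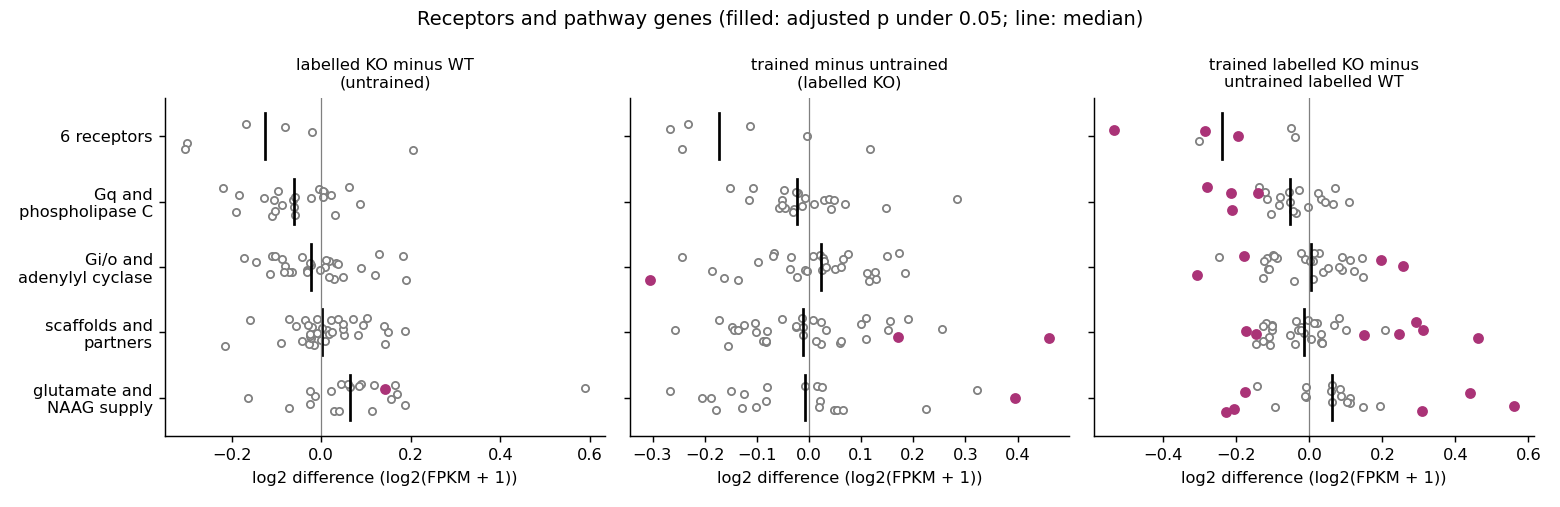
Log2 differences (horizontal axes, log2(FPKM + 1) scale) of the 6 receptors and of the tested genes of 4 lists of signalling, partner and supply genes (rows) in 3 comparisons. Each circle is a gene, filled circles passed at an adjusted p under 0.05, and the black line is the median of the row. The receptors' medians, -0.12, -0.17 and -0.24, lie further below 0 than those of the 4 lists.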

How the data were processed

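The authors deposited 1 table of FPKM values for 24 libraries, made from stranded poly(A) libraries per the labels' protocols. The submitters' processing notes name FastQC 0.11.7, Trimmomatic 0.38, STAR 2.5.3a, featureCounts (Subread 1.6.3) and mm10. The strand setting is not given in the sources used here. All columns were matched to samples. Positions are from GENCODE M21 (GRCm38).

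From the deposited FPKM values whole reads were recovered for 15227 of 15232 genes (100% of their values within 0.02 read). They cover counting error only.

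The fits used limma 3.58.1 (R 4.3.3; lmFit, eBayes with trend) on log2(FPKM + 1), which understates changes of low genes, for the genes whose mean reached 1 FPKM. Only the compared arms entered, with sex as a covariate, and p-values were adjusted by Benjamini-Hochberg over all genes (threshold 0.05). Read recovery and fit were tested on simulated data. Correlations used log2 values and 100000 resamples, and exact permutation within arms. Python 3.11.15 and scipy 1.17.1 were used. Alternatives were other scalings (median ratio, equal sum, quantile), a pseudocount of 0.1, no filter or a mean of 5 FPKM, one fit of the 3 arms, array weights, limma-voom, no sex covariate, an animal number covariate, a replicate block, GC and length correction, and each library left out. Fits restricted to males over number 1000, and combined or list fits without male library 3, were chosen after seeing the data.

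The members and lists were chosen with earlier results of these data known. Named are the receptors, list genes that passed for genotype label or training, the likest genes, called neighbours of Grm4, and markers. Some genes that the rule gives are not named here.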

Additional observations from a re-analysis of the deposited data

Results flagged for a closer look

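In each arm of 8 libraries, the levels of the 6 receptors and the sums of 9 marker lists were searched for a highest or lowest library with a gap to its neighbour that was large for the range of the arm. Of 45 sets of values, 12 had such a library, where chance gives about 2.25, and 8 of the 12 came from male library 3 of the untrained KO-labelled arm. There Grm5 (45.1 FPKM) and Grm4 (11.6 FPKM) were far above, and Grm2 (4.01 FPKM) and Grm8 (4.49 FPKM) far below, the other 7 libraries. Grm3 and Grm7 were the lowest of the arm there without such a gap.

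In the same library the excitatory cortical neuron markers summed to 975 FPKM and the oligodendrocyte markers to 660 FPKM, both below the arm, while the GABAergic interneuron markers summed to 796 FPKM and the septal markers to 114 FPKM, both above it. Among the interneuron markers Gad2 was at 151 FPKM against 27.7 to 41.0 FPKM in the other 23 libraries, whereas Pvalb (10.7 FPKM) and Vip (11.8 FPKM) lay below all of them. Zic1, a septal marker, was at 52.0 FPKM against at most 2.70 FPKM. The other 4 were marker sums elsewhere: interneuron markers at 651 FPKM in WT-labelled male 1, astrocyte markers at 1139 FPKM in untrained KO-labelled female 4 and at 1057 FPKM in trained male 4, and striatal markers at 208 FPKM in trained male 1.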

How the results depend on the processing

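Of 756 alternative values of the receptors' log2 differences, 689 kept their direction and side of the threshold, 17 lost a call, 15 gained one and 35 changed sign. The number of receptors called follows, with the number of genes called among all 12572 in brackets. For training it was 1 with array weights (2020) and 2 with array weights and male library 3 left out (1953). Without single libraries it was 0 to 1 (330 to 945), where the 1 was Grm3 without male library 3 (852). For the third pair it was 0 with the animal number covariate (22) and 2 from one fit of the 3 arms (2592). For sex it was 1 with the number covariate (2702) and 0 with GC and length correction (614 of 12118 genes). Without single libraries it was 1 to 3 for sex (2986 to 4233). Sign changes were, for the genotype label, Grm5 at 0.019 with the number covariate and -0.16 to 0.035 without single libraries. For training, Grm2 was at 0.0096 with a pseudocount of 0.1, 0.037 in limma-voom and -0.25 to 0.077 without single libraries. In the third pair, Grm8 was at 0.14 with the number covariate and Grm4 at -0.083 to 0.0087 without single libraries. For sex, Grm2 was at -0.032 with an equal sum per library, -0.12 with the number covariate, -0.088 with GC and length correction, -0.026 in limma-voom and -0.031 to 0.18 without single libraries, and Grm8 at 0.086 with GC and length correction and -0.056 to 0.013 without single libraries. These values were all near 0 in the fits reported, and the cause was not tested.

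Within arms, r changed sign for Grm5 with interneuron markers (0.52, untrained KO-labelled) and striatal markers (-0.16, trained), Grm4 with interneuron markers (-0.17, WT-labelled), and Grm8 with excitatory markers (-0.0086, WT-labelled) and interneuron markers (0.078, trained).

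Over all genes, the genotype label gave 179 calls, 98 without the sex covariate, 297 with array weights and 115 to 340 without single libraries. Training gave 713, 422 without the sex covariate, 1238 from one fit of the 3 arms, 2020 under array weights, 0 with the number covariate or among males over 1000, and 330 to 945 without single libraries. Training by sex gave 1, and 0 to 194 without single libraries, up to 1132 with array weights. With an equal sum per library the split of higher to lower calls went from 440 and 273 to 235 and 385 for training, from 1626 and 1448 to 1095 and 2112 for the third pair, and from 1857 and 1738 to 972 and 2600 for sex.

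Same-numbered libraries did not deviate together (mean r 0.02, -0.07 and -0.09 for the 3 pairs of arms). The trained female with no number in its title, and its partner, were left out of the block. With the replicate block 0, 0 and 2 receptors and 114, 29 and 1614 genes passed, Grm2 was at 0.0086 for training and Grm4 at 0.015 in the third pair. Grm4 rested on the fewest reads.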
